A study of Mus musculus with 5 samples.

Results

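The collagen genes of the mouse were followed in 5 mammary tumours by RNA sequencing. The members are the features whose symbol is Col, a type number, a and a chain number. They come to 44 of the 38918 features measured, with 11 fibrillar, 8 basement membrane and 25 other collagen genes. The class of each gene was set from knowledge of the protein and not from its values. All 5 tumours came from FVB mice that carry an SV40 transgene and were taken at 20 weeks of age. The control group holds 2 tumours from offspring of dams on a control diet. The maternal BSp group holds 3 tumours from offspring of dams on a diet with 26% broccoli sprouts (BSp), given from conception to weaning, and the offspring of both groups were themselves untreated. The series asks what the diet of the dam leaves behind in the transcripts of her offspring's tumours. The labels do not name the promoter that drives the transgene, and they do not say whether tumours of a group came from separate animals or litters, so a p-value here speaks of the spread among these 5 libraries only.

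Collagens are secreted proteins whose chains wind around each other into a helix and then assemble outside the cell. Fibrillar collagens such as types I, III and V form the cable-like fibrils of the stroma and are made mainly by fibroblasts, while type IV collagen forms the sheet on which epithelial cells and blood vessels rest. Other collagens decorate fibrils (the FACIT group, with types IX, XII, XIV and XVI), form beaded filaments (type VI) or short-chain networks (type VIII), or anchor epithelium to its base (types VII and XVII). Stroma around mammary tumours is known for dense type I collagen.

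Each value below is a number of reads for a gene, scaled by the authors so that every library sums to 1106813. Whole reads could be recovered. Control replicate 1 holds 1106813 of them, control replicate 2 holds 3909583, and the maternal BSp replicates hold 8459029, 61663199 and 13796272. Both controls were thus shallower than every maternal BSp library, so depth and diet cannot be told apart. The summed value of 8 luminal epithelial markers was 5090 and 6037 in control against 5018, 6527 and 5568 in maternal BSp. Single markers were less even. Epcam lay between 1756 and 2393 and Krt8 between 422 and 1048, but Cldn4 between 116 and 1306 and Elf5 between 5.71 and 111. The summed value of 8 basal and myoepithelial markers was lowest in maternal BSp replicate 3, at 274 against 1453 to 3228 in the other libraries. Krt14 and Krt17 made up most of that sum, and Acta2 and Oxtr of the same list were not lowest there. In these bulk samples, fewer cells of a type and less RNA per cell cannot be told apart.

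Promoter windows are shown for 2 sets of genes on which the results turn. In RefSeq (GRCm38.p6) the windows run from 250 bases before to 50 bases after a gene's start, and 35 of the 44 members have one. The first set holds 2 pairs of type IV chains that sit head to head on their chromosomes. The pair of Col4a3 and Col4a4, also head to head, is not shown, and Col4a3 has no window. Col4a1 and Col4a2 share 78 bases of their windows, marked by capitals and written on opposite strands, and GENCODE has the genes themselves overlapping by 22 bases.
Col4a1 (chr8:11312777-11313076, minus strand): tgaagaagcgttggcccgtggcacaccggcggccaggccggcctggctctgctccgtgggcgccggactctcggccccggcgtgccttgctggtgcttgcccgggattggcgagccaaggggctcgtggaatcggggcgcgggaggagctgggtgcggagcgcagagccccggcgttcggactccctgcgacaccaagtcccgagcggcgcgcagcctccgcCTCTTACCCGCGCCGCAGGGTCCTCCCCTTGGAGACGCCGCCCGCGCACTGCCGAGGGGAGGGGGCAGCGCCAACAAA
Col4a2 (chr8:11312555-11312854, plus strand): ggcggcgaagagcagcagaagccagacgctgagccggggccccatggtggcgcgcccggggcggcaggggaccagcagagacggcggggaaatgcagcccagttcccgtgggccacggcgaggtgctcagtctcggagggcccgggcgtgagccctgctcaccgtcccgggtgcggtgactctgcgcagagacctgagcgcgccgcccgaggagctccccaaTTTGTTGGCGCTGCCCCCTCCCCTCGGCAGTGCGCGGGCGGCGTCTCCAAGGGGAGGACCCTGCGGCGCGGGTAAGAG
Col4a5 and Col4a6 also point away from each other, but 842 bases lie between their windows. Here and in the windows that follow, capitals mark matches, on either strand, to 1 of 4 strings of letters. They are the TATA box, searched as TATAAA. The GC box was searched as GGGCGG. The CCAAT box is named by its letters. The core that SOX factors are known to bind was searched as AACAAT.
Col4a5 (chrX:141475169-141475468, plus strand): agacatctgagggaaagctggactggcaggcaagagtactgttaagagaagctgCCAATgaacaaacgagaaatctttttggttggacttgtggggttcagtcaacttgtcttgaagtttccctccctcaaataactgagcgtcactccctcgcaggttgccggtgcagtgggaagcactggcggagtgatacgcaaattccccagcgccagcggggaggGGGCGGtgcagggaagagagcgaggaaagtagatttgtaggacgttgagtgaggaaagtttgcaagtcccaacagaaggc
Col4a6 (chrX:141474027-141474326, minus strand): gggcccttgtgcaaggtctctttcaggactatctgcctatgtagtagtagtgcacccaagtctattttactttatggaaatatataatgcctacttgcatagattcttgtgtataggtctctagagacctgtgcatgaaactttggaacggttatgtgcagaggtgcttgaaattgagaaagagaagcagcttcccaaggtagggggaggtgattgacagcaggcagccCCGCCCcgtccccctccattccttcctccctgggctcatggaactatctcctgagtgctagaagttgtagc
The second set holds Col9a1, Col9a2 and Col11a1, which were highest together in maternal BSp replicate 3. Col9a3 was highest there as well but has no window. Some other members that were highest there, such as Col6a3, are not shown. Col9a1 has a further window at a start inside the gene, which is not shown.
Col9a1 (chr1:24177360-24177659, plus strand): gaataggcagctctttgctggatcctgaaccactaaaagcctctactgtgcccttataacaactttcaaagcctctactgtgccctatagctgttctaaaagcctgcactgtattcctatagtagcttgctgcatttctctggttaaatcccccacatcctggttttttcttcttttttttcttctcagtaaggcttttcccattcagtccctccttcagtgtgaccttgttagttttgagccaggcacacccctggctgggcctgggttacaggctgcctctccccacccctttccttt
Col9a2 (chr4:121039316-121039615, plus strand): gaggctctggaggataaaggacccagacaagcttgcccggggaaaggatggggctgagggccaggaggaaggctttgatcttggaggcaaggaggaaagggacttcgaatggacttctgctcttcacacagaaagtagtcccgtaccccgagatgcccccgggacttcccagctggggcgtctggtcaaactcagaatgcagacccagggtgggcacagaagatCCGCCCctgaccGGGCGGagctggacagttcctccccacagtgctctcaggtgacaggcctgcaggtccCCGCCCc
Col11a1 (chr3:114030290-114030589, plus strand): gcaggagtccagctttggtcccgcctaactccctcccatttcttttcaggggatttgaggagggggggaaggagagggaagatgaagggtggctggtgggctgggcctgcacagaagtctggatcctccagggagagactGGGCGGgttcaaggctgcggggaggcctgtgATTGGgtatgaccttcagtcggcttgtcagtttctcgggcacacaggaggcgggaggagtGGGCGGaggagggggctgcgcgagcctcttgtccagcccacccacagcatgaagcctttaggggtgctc

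The GC box occurred in 60.5% of the 38 windows of members and in 35.7% of all 32851 windows of that length. The CCAAT box occurred in 34.2% and 37.4%, the TATA box in 13.2% and 13.6%, and the SOX core in 2.63% and 10.7%. None of these letters occurred in the Col9a1 window. The Col9a2 window held the GC box 3 times, and the Col11a1 window held it 2 times beside 1 CCAAT box. A match is a string of letters and not a site, and its absence says nothing about a factor.

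Of the 44 collagen genes, 26 had a mean of at least 10 over the 5 libraries and were tested, with 8 fibrillar, 5 basement membrane and 13 other members. Just inside that limit lay Col14a1 with a mean of 10.2, and just outside it Col2a1 and Col15a1 with means of 9.83 and 9.81. Compared per kilobase of the longest coding transcript, the mean level was highest for Col16a1, a FACIT collagen, at 55.4 per kb. Col6a1 at 49.9, Col1a2 at 49.2, Col9a3 at 40.7, Col3a1 at 27.5 and Col1a1 at 27.3 per kb came next. Each of these genes varied by 1.89-fold (Col16a1) to 20.8-fold (Col6a1) over the 5 libraries, so neighbours in that order are not separated beyond their spread. The leading gene per kb differed between libraries. It was Col1a2 in control replicate 1, Col16a1 in control replicate 2 as well as maternal BSp replicate 1, Col6a1 in maternal BSp replicate 2, and Col9a2 in maternal BSp replicate 3.

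All collagen genes together took 0.290% of reads (exact 95% binomial interval 0.2796 to 0.2998) in control replicate 1 and 0.132% (0.129 to 0.136) in control replicate 2. In maternal BSp replicates 1, 2 and 3 they took 0.185%, 0.267% and 0.196%, all between the controls. Such intervals cover counting error only. Fibrillar genes took 0.112% and 0.0324% in control, against 0.0659%, 0.0960% and 0.0434% in maternal BSp. The maternal BSp libraries thus again lay within the range of the controls, but for replicate 3 this rested on Col11a1. Without that gene the fibrillar share there was 0.0268%, below both controls at 0.110% and 0.0320%. Basement membrane genes varied less, at 0.0420% and 0.0279% in control against 0.0392%, 0.0505% and 0.0400% in maternal BSp. The other collagens took 0.136% and 0.0720% in control against 0.0798%, 0.121% and 0.113% in maternal BSp. Fibrillar reads exceeded basement membrane reads by 2.66-fold in control replicate 1 and by 1.90-fold in the second maternal BSp library. The excess was only 1.16-fold in control replicate 2 and 1.09-fold in maternal BSp replicate 3. Without Col11a1 the fibrillar sum in maternal BSp replicate 3 was 296, under the basement membrane sum of 443.

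**Figure D1:**
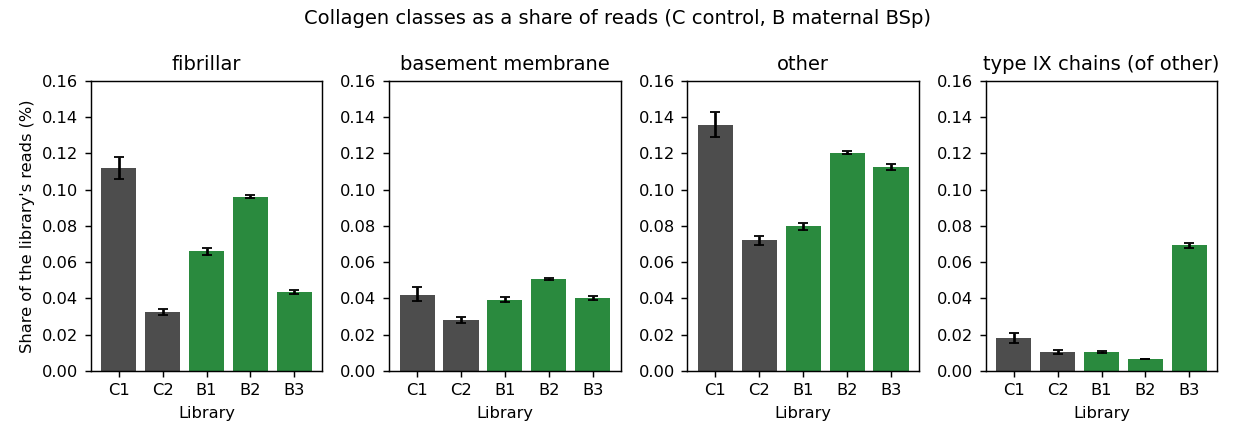
Share of each library's reads (%, y axis) taken by fibrillar, basement membrane and other collagen genes and by the type IX chains, which are a subset of the other class, in control (C, grey) and maternal BSp (B, green) libraries. Error bars are exact 95% binomial intervals. Fibrillar genes range from 0.0324% (C2) to 0.112% (C1), both of them controls, and the type IX chains reach 0.0693% in B3.

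No collagen gene passed the test between maternal BSp and control, which was limma across 9870 genes with Benjamini-Hochberg adjustment at 0.05. The smallest adjusted p of a member was 0.407, and over all genes the background was 0% called. At an unadjusted p under 0.05 there were 2 of 26 members, both higher in maternal BSp, Col4a5 and Col11a1, against a background of 11.2% of all genes tested (8.01% higher, 3.14% lower). Which members these are depended on the scaling. With upper quartile, median-of-ratios and quantile scaling they were Col4a5, higher, with Col7a1 and Col8a1, lower, and not Col11a1. Over all genes the split at that p moved from 791 higher and 310 lower as deposited to 608 and 488, 504 and 549, and 467 and 525 with these scalings. The edgeR quasi-likelihood test called 0 members and 0 genes after adjustment, with 2 members (Col4a5 and Col7a1) and 9.84% of genes at an unadjusted p under 0.05. DESeq2 called 0 members and 0.881% of genes, with 5 members and 11.8% of genes at an unadjusted p under 0.05. Of the 26 members, 13 had a positive and 13 a negative log2 fold change, while 63.2% of all genes tested had a positive one. The groups did not overlap for 2 members (7.69%), Col4a5 and Col7a1, against 33% of all genes tested, 23.8% higher and 9.21% lower in maternal BSp.

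The log2(value + 1) scale of the fold changes makes those of low genes too small. The median log2 fold change was 0.18 for the tested fibrillar members, 0.055 for the basement membrane members and -0.40 for the others, beside 0.21 for all genes tested. Upper quartile scaling put the median of all genes at 0.080, median-of-ratios scaling at 0.034 and quantile scaling at 0.031, and 10, 10 and 9 of the 26 members were then positive. The class medians depended on single controls. Without control replicate 1 the fibrillar, basement membrane and other medians were 0.84, 0.51 and 0.22, and without control replicate 2 they were -0.79, -0.35 and -1.16.

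**Figure D2:**
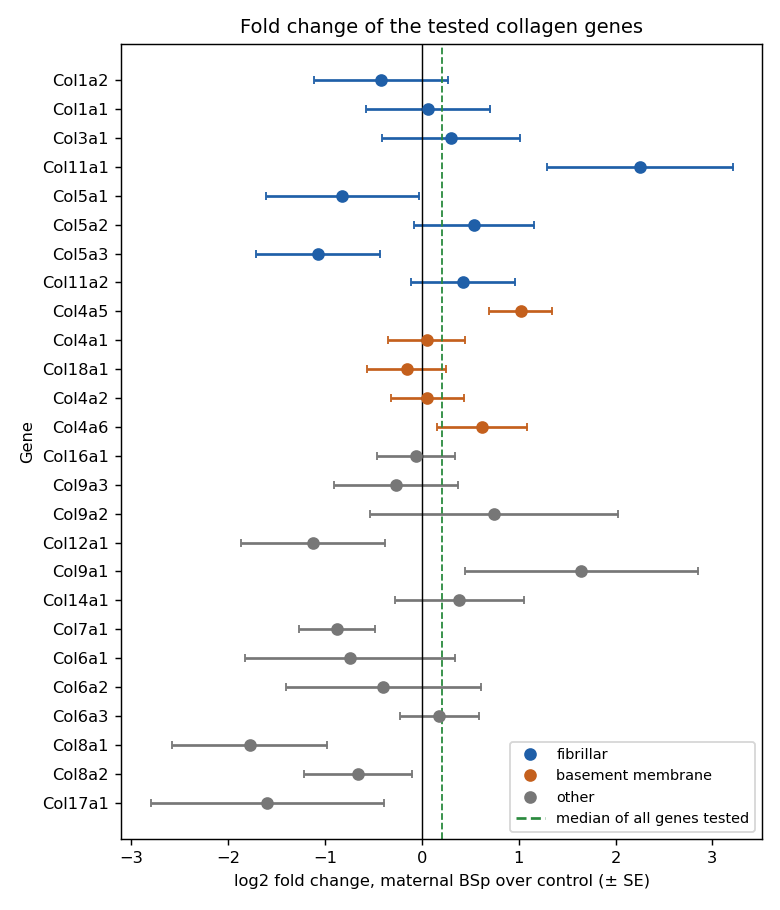
Log2 ratio of maternal BSp to control (x axis, points, with bars of 1 SE from limma) for the 26 collagen genes with a mean of at least 10 (y axis), coloured by class, from 2 control and 3 maternal BSp libraries. The dashed line is the median of all genes tested, 0.21. Points lie on both sides of 0, from Col8a1 at -1.78 to Col11a1 at 2.26, and 15 of 26 bars cross 0.

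Among the fibrillar genes, type I and type III collagen were high and low in the same libraries, in both groups. Col1a1 encodes a chain of type I collagen (chromosome 11, 94936224 to 94953042, GRCm38) and read 233 and 81.5 in control replicates 1 and 2, against 191, 240.2 and 65.5 in maternal BSp replicates 1 to 3. Col1a2, the partner chain (chromosome 6, 4504814 to 4541544), read 467 and 149.8 in control against 256, 359 and 84.4 in maternal BSp. Col3a1, the chain of type III collagen (chromosome 1, 45311538 to 45349706), read 261 and 48.7 in control against 161, 217 and 77.7 in maternal BSp. All 3 genes were low in the second control and the third maternal BSp library and high in the first control and the second maternal BSp library, so the groups overlapped. The log2 fold changes were 0.065 (SE 0.64) for Col1a1, -0.42 (SE 0.69) for Col1a2 and 0.30 (SE 0.71) for Col3a1, with limma adjusted p of 0.975, 0.831 and 0.885. The sign for Col1a1 turned negative with each of the other scalings, and that for Col1a2 turned positive without control replicate 1 (0.40).

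The ratio of the type I chains was the chain ratio that separated the groups. Col1a1 over Col1a2 was 0.499 and 0.544 in control against 0.746, 0.670 and 0.777 in maternal BSp. Every maternal BSp library lay above both controls, and the group means of the log2 ratio, each value taken plus 1, differed by 0.48. The two-sided exact permutation test gave p = 0.1, the smallest that the 10 splits allow, and 0.4 when adjusted over the 4 chain ratios computed. Corrected for transcript length the ratio was 0.450 and 0.491 in control against 0.672, 0.604 and 0.700 in maternal BSp. Col1a2 thus had more reads per kb in all 5 libraries, and no difference between the genes other than length was corrected for. The ratio of Col3a1 to Col1a1 was 1.12 and 0.597 in control against 0.844, 0.903 and 1.18 in maternal BSp (exact permutation p = 0.7, adjusted p 0.933).

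Type V collagen, a minor partner that is known to start fibrils of type I, was measured through 3 chains. Col5a1 read 106 and 21.2 in control against 32.4, 52.1 and 10.9 in maternal BSp. Col5a2, a neighbour of Col3a1 with 24614 bases between the genes, read 36 and 22.9 in control against 35.5, 99.0 and 21.2 in maternal BSp. Col5a3 read 59 and 20.4 in control against 17.3, 29.3 and 8.02 in maternal BSp. All 3 were lowest in maternal BSp replicate 3, and the groups overlapped for each. Their log2 fold changes were -0.82 (SE 0.79), 0.54 (SE 0.62) and -1.07 (SE 0.64), with limma adjusted p of 0.691, 0.744 and 0.533. Without control replicate 1 they were 0.32, 0.85 and -0.32.

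Type XI collagen is a minor fibrillar collagen best known from cartilage. Col11a1 (chromosome 3, 114030540 to 114220718) read 19 and 4.25 in control against 17.9, 32.4 and 184 in maternal BSp. Its highest value was 10.02-fold the mean of the other 4 libraries, and control replicate 1 lay above maternal BSp replicate 1. The log2 fold change was 2.26 (SE 0.96, unadjusted p 0.0459, limma adjusted p 0.442), and it was 1.30 without maternal BSp replicate 3 and 1.29 without control replicate 2. Col11a2, its partner chain, read 18 and 7.08 in control against 14.1, 15.96 and 17.0 in maternal BSp, with a log2 fold change of 0.43 (SE 0.54, limma adjusted p 0.773) that was -0.19 without control replicate 2. At 17.0 in maternal BSp replicate 3 the partner chain lay just under control replicate 1, so it did not stand apart there as Col11a1 did.

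**Figure D3:**
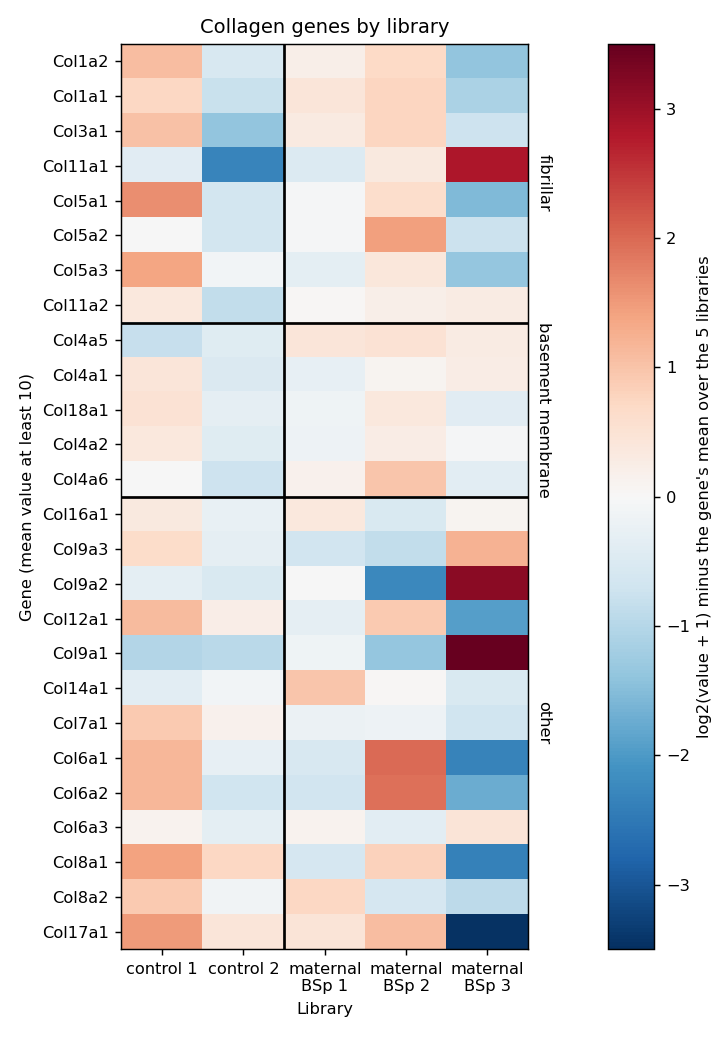
Log2(value + 1) of each tested collagen gene minus that gene's mean over the 5 libraries (colour, red above and blue below), by library (x axis) and by gene within class (y axis), with the controls left of the vertical line. Most type I, III and V genes are red in the left control and in maternal BSp 2, and blue in the right control and in maternal BSp 3. Col11a1, Col9a1 and Col9a2 are darkest red in maternal BSp 3, where Col17a1 is darkest blue.

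Type IX collagen is a FACIT that is known to sit on the surface of fibrils and to be abundant in cartilage, and all 3 of its chains were highest in maternal BSp replicate 3. Col9a1 (chromosome 1, 24177610 to 24252684) read 9 and 9.63 in control against 17.5, 6.96 and 227 in maternal BSp. Col9a2 (chromosome 4, 121039385 to 121055322) read 25 and 21.8 in control against 32.2, 5.94 and 294 in maternal BSp. Col9a3 (chromosome 2, 180597790 to 180622189) read 165 and 84.4 in control against 65.9, 58.3 and 246 in maternal BSp. Maternal BSp replicate 3 exceeded the mean of the other 4 libraries by 21.0-fold, 13.9-fold and 2.63-fold, while maternal BSp replicate 2 was the lowest library for each of the 3 genes. Together the chains took 35.3% of all collagen reads in maternal BSp replicate 3 and 2.41% to 7.91% in the other libraries. The group comparison followed that 1 library. The log2 fold changes were 1.65 (SE 1.20), 0.75 (SE 1.27) and -0.26 (SE 0.64), with limma adjusted p of 0.602, 0.839 and 0.889, and without maternal BSp replicate 3 they were 0.24, -0.68 and -0.92.

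Markers of cartilage cells did not follow type IX collagen as a list. Matn1 had no read in any library, Hapln1 reached at most 4.90 and Acan, the large cartilage proteoglycan, read 51.2 in maternal BSp replicate 3 and 44.8 to 162 elsewhere. Sox9, a transcription factor of cartilage and of mammary epithelium, was lowest there, at 108 against 259 to 402. Comp, a cartilage matrix protein, was high there, at 49.2 against 1.13 to 3.14. The summed value of the 6 cartilage markers was 209 in maternal BSp replicate 3 and 308 to 566 in the other libraries. Sox9 was the largest part of that sum in every library, so the sum mainly shows Sox9 and is no measure of the other markers. The part that these markers have in the type IX values was not tested.

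The remaining FACIT genes showed no common direction. Col16a1 was among the steadiest collagen genes and read 354 and 233 in control against 364, 193 and 298 in maternal BSp, with a log2 fold change of -0.058 (SE 0.40, limma adjusted p 0.962) that turned positive (0.24) without control replicate 1. Col12a1, which is known to bind type I fibrils, read 125 and 66.8 in control against 45.3, 108 and 14.3 in maternal BSp. Its log2 fold change was -1.12 (SE 0.74, limma adjusted p 0.567), and it was -0.38 without maternal BSp replicate 3 and -0.67 without control replicate 1. Col14a1 lay between 6.18 and 19.2.

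Type VI collagen forms beaded filaments next to fibrils and basement membranes. Col6a1 (chromosome 10, 76708792 to 76726168) read 291 and 105 in control against 87.1, 515 and 24.8 in maternal BSp. Its neighbour Col6a2, on the same strand with 85161 bases between the genes, read 116 and 31.4 in control against 31.9, 199 and 14.5 in maternal BSp. Both genes had their highest and their lowest value inside the maternal BSp group, in replicates 2 and 3. Their log2 fold changes were -0.74 (SE 1.08) and -0.40 (SE 1.01), with limma adjusted p of 0.807 and 0.892, and both turned positive without maternal BSp replicate 3 (0.28 and 0.40). Col6a3, the third chain and on another chromosome, did not share that spread and lay between 23.0 and 42.0. The ratio of Col6a1 to Col6a2 was 2.51 and 3.34 in control against 2.73, 2.59 and 1.71 in maternal BSp (exact permutation p = 0.6, adjusted p 0.933). Col6a4, Col6a5 and Col6a6 had no control read and stayed at or below 0.393 in maternal BSp. The value of 3 reads was 3 in control replicate 1 and 0.849 in control replicate 2, so such levels could go unseen in the controls.

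**Figure D4:**
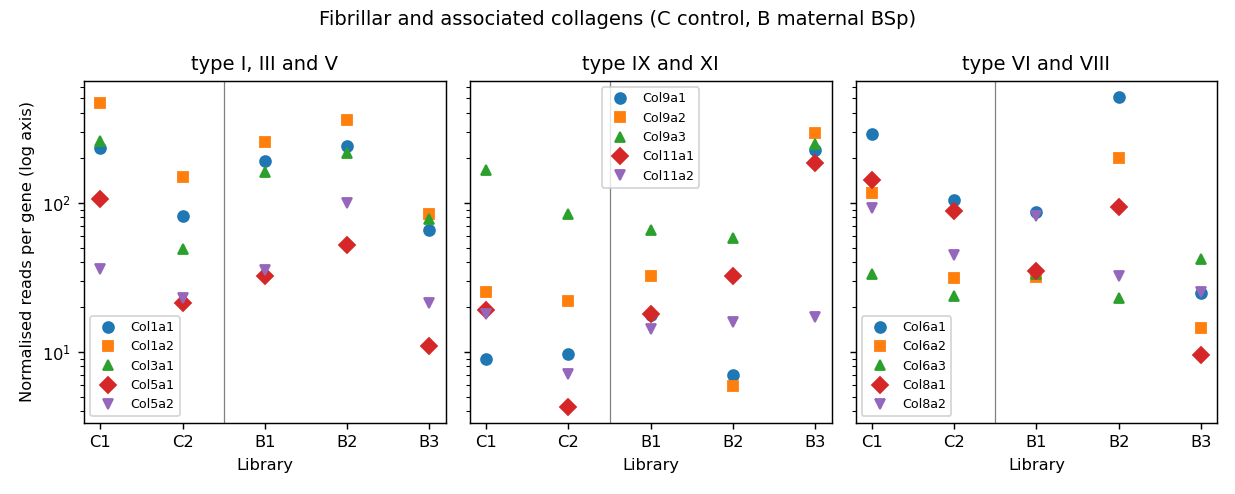
Normalised reads per gene (y axis, log scale) in control (C1, C2) and maternal BSp (B1 to B3) libraries for chains of types I, III and V (left), IX and XI (middle) and VI and VIII (right), 1 point per gene and library. Col9a1, Col9a2 and Col11a1 lie between 184 and 294 in B3 and at 32.4 or below elsewhere, and Col6a1 runs from 24.8 in B3 to 515 in B2.

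Among the 5 tested basement membrane genes, Col4a5 was the member whose groups did not overlap. Col4a5 (chromosome X, 141475385 to 141689234), a type IV chain that pairs with the chains of Col4a3 and Col4a4 or of Col4a6, read 65 and 83.8 in control against 153, 162 and 139 in maternal BSp. All maternal BSp libraries lay above both controls, at 151 ± 11.5 (SD, n = 3) against 74.4 ± 13.3 (n = 2). The log2 fold change was 1.02 (SE 0.32, unadjusted p 0.0133, limma adjusted p 0.407), and it lay between 0.84 and 1.20 with any 1 library left out and between 0.84 and 0.89 with the other scalings. It passed the threshold with array weights (limma adjusted p 0.0436), a setting that called 7.08% of all genes tested, and in no other alternative. In the authors' deposited table Col4a5 is listed with an unadjusted p of 0.0496 and a ratio of maternal BSp to control means of 2.03. That table lists 2 of the 44 members (4.55%) for this contrast, and 4.47% of all features.

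Col4a6, the neighbour of Col4a5 on the other strand (141165403 to 141474076, with 1308 bases between the genes), read 49 and 29.7 in control against 55.0, 98.3 and 38.6 in maternal BSp. Maternal BSp replicate 3 lay between the controls, so the groups overlapped, unlike those of Col4a5. Its log2 fold change was 0.62 (SE 0.47, limma adjusted p 0.61), and 0.26 without maternal BSp replicate 2. The minor chains Col4a3 and Col4a4 sit head to head on chromosome 1 with 71 bases between the genes. Col4a4 read 10 and 3.68 in control against 0.654, 2.12 and 0.401 in maternal BSp, and in the authors' deposited table it is listed at means of 6.84 and 1.06 with an unadjusted p of 0.0320. Both controls lay above all maternal BSp libraries. Control replicate 1 carries 10 reads for it, and its mean over the 5 libraries lies under the limit used here. Col4a3 read at most 1.94 in any library.

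Col4a1 and Col4a2 encode the chains of the common type IV collagen and were steady. Col4a1 (chromosome 8, 11198423 to 11312826) read 140 and 73.0 in control against 84.8, 110.0 and 123 in maternal BSp. Col4a2 (11312805 to 11449287) read 90 and 51.0 in control against 61.2, 84.0 and 68.0 in maternal BSp. The maternal BSp values of both genes lay between those of the controls. The log2 fold changes were 0.050 (SE 0.39) and 0.055 (SE 0.38), with limma adjusted p of 0.969 and 0.962, and both turned negative with each of the other scalings. Col4a1 over Col4a2 was 1.56 and 1.43 in control against 1.38, 1.31 and 1.81 in maternal BSp (exact permutation p = 1, adjusted p 1). The 2 genes, which share the stretch in capitals above, were high and low in nearly the same libraries, and each ranged less than 2-fold. Reads from the overlap of the genes cannot be assigned without strand, whose use in the counting is not given in the sources used here.

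Col18a1, a proteoglycan of basement membranes that is the source of endostatin, read 105 and 58.9 in control against 66.1, 96.2 and 55.4 in maternal BSp. Its log2 fold change was -0.15 (SE 0.41, limma adjusted p 0.899), and it was 0.26 without control replicate 1. Col15a1, its close relative, lay under the limit, at 5 and 8.21 in control against 13.3, 4.18 and 18.3 in maternal BSp.

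**Figure D5:**
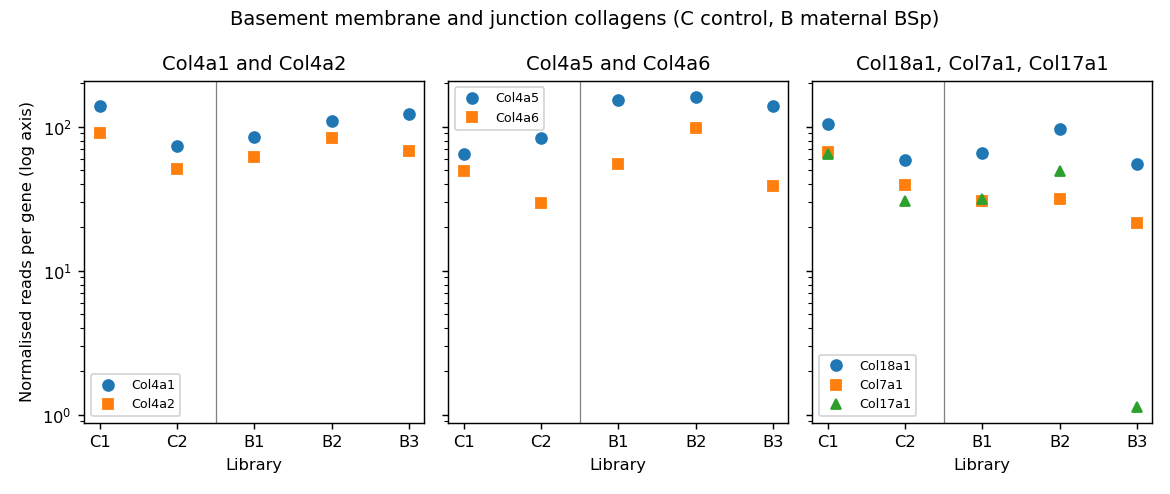
Normalised reads per gene (y axis, log scale) in control (C1, C2) and maternal BSp (B1 to B3) libraries for the type IV chains of chromosome 8 (left), those of chromosome X (middle) and Col18a1, Col7a1 and Col17a1 (right), 1 point per gene and library. Col4a5 is at 65 and 83.8 in control and at 139 to 162 in maternal BSp, and Col17a1 is at 1.12 in B3.

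Col7a1 and Col17a1 are known to fasten epithelium to its base, and neither passed the test. Col7a1, which forms anchoring fibrils (chromosome 9, 108953586 to 108984875), read 67 and 39.1 in control against 30.6, 31.3 and 21.6 in maternal BSp. Its groups did not overlap. The log2 fold change was -0.87 (SE 0.40, unadjusted p 0.0572, limma adjusted p 0.455), and -0.49 without control replicate 1. Col17a1, a transmembrane collagen of hemidesmosomes and named here after its values were seen, read 65 and 30.6 in control against 31.4, 49.1 and 1.12 in maternal BSp. Its log2 fold change was -1.60 (SE 1.20, limma adjusted p 0.611), and without maternal BSp replicate 3 it was -0.18. In that library the basal keratins Krt5 and Krt14 read 2.89 and 42.9, against 47.1 to 203 and 504 to 1294 in the other 4 libraries. Of the 8 basal and myoepithelial markers 6 were tested, all with negative log2 fold changes, and for 3 of them maternal BSp was lower without overlap, against 9.21% of all genes tested. The part of these markers in the Col7a1 and Col17a1 values was not tested.

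The type VIII chains, which form short-chain networks and are known from vessel walls, had negative fold changes. Col8a1 read 141 and 88.6 in control against 34.9, 94.0 and 9.47 in maternal BSp, with maternal BSp replicate 2 above control replicate 2. Its log2 fold change was -1.78 (SE 0.80, unadjusted p 0.057, limma adjusted p 0.454), the lowest of the members, and it was -0.95 without maternal BSp replicate 3. Col8a2 read 92 and 44.7 in control against 81.3, 32.2 and 25.1 in maternal BSp, with a log2 fold change of -0.65 (SE 0.56, limma adjusted p 0.655) that was -0.14 without control replicate 1. The summed value of 9 endothelial markers lay between 82.1 and 118 in all 5 libraries. That of 9 pericyte and vascular smooth muscle markers was 305 and 148 in control against 225, 295 and 126 in maternal BSp. The part of vessel cells in the type VIII values was not tested.

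Of the 18 members under the limit, 13 had no value of 10 in any library and 9 stayed under 1 in every library. Col2a1, the main fibrillar collagen of cartilage, read 25 and 0.849 in control against 1.05, 13.3 and 8.99 in maternal BSp, so it was not high in the library that was highest for type IX. Col25a1, a transmembrane collagen, was at 17.5 in maternal BSp replicate 3 and at most 5 elsewhere. Col27a1 read 14 in control replicate 1 and 1.42 to 4.38 elsewhere. Col13a1, a transmembrane collagen, read 6 and 3.96 in control against 2.88, 0.915 and 1.20 in maternal BSp. Col10a1, Col20a1, Col22a1, Col23a1, Col24a1, Col26a1 and Col28a1 read at most 2.55 in any library. Col19a1 had no read in any library, which allows a value of up to 3 in control replicate 1 but 0.0538 in maternal BSp replicate 2, the values of 3 reads there.

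Across the tested members, maternal BSp replicate 3 was the lowest library for 14 of 26 (53.8%), including 5 of 8 fibrillar genes, against 23.5% of all genes tested. Control replicate 1 was the highest library for 13 (50%), against 9.46% of all genes tested. Maternal BSp replicate 2 was the highest library for 6 of 26, against 45.8% of all genes tested. Some markers of fibroblasts were high and low with the type I genes and others were not. Dcn, Lum, Pdgfra, Fbln2 and Postn are named here after their values were seen. Dcn and Lum, small proteoglycans that bind fibrils, read 33 and 21 in control replicate 1, 3.68 and 2.55 in control replicate 2, then 10.7 and 5.21 in maternal BSp replicate 3, so that the libraries low in type I collagen were low in these as well. In maternal BSp replicates 1 and 2 they read 31.0 and 94.5 (Dcn) and 14.4 and 25.2 (Lum). Pdgfra, a receptor of fibroblasts, did not follow, at 27 and 19.3 in control against 49.98, 76.1 and 42.9 in maternal BSp. Fbln2, a matrix protein of the same list, read 242 and 181 in control against 441, 329 and 708 in maternal BSp, and so was highest where type I collagen was lowest. Postn, the most abundant gene of that list, read 678 and 437 in control against 544, 1695 and 93.1 in maternal BSp, with its lowest value in that same library. The summed value of all 10 fibroblast markers was 1030 and 672 in control against 1127, 2265 and 887 in maternal BSp. The part of fibroblast number in the collagen values was not tested. Among 2262 other genes with a mean of at least 100, the 5 whose log2(value + 1) followed Col1a1 most closely over the 5 libraries were Bgn, Efna5, Cryab, Zfp36l1 and Rhoc, with Pearson r of 0.982 to 0.986. This is a description over 5 libraries with no test. Bgn, which encodes the fibril-binding proteoglycan biglycan, read 271 and 92.6 in control against 196, 309 and 52.4 in maternal BSp.

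Genes that modify, process and sense collagen passed no test either. Of 20 genes for modification and folding inside the cell 17 were tested, 11 with a positive and 6 with a negative log2 fold change, and the median was 0.19. Maternal BSp was higher without overlap for 3 of the 17, against 23.8% of all genes tested. Serpinh1, the collagen chaperone HSP47, read 127 and 96.5 in control against 261, 183 and 144 in maternal BSp, with every maternal BSp library above both controls (log2 fold change 0.77, SE 0.38, limma adjusted p 0.47). Plod2, a lysyl hydroxylase that prepares crosslinks, read 24 and 54.4 in control against 48.2, 63.3 and 155 in maternal BSp. P3h3, listed under its older symbol Leprel2 and encoding a prolyl 3-hydroxylase family member, read 6 and 4.81 in control against 15.0, 17.7 and 22.9 in maternal BSp (log2 fold change 1.60, SE 0.53, limma adjusted p 0.407). Of the propeptide-removing genes 3 of 8 were tested, 1 positive and 2 negative. Bmp1, the protease that trims the end of type I chains, and its enhancer Pcolce were lowest in maternal BSp replicate 3, at 23.5 and 56.0 against 72.5 to 135 and 152 to 256, as was the fellow protease Adamts2, at 4.65 against 11.6 to 36.0.

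Of the lysyl oxidases, which crosslink collagen outside the cell, 3 of 5 were tested, 2 positive and 1 negative. Lox read 11 and 15.9 in control against 23.2, 52.9 and 10.2 in maternal BSp, Loxl3 25 and 20.1 in control against 32.4, 62.2 and 29.4 in maternal BSp, and Loxl1 48 and 59.2 in control against 17.9, 142 and 7.30 in maternal BSp. All 3 were highest in maternal BSp replicate 2, as were 45.8% of all genes tested. The groups did not overlap for Loxl3 (1 of 3), and 23.8% of all genes tested were higher in maternal BSp without overlap. Of the collagen receptors 4 of 10 were tested, 3 positive and 1 negative. Mrc2, which takes up collagen for breakdown, read 25 and 18.1 in control against 49.7, 51.7 and 146 in maternal BSp, with a log2 fold change of 1.72 (SE 0.52, unadjusted p 0.0103, limma adjusted p 0.407). Ddr1, a collagen-sensing kinase of epithelium, read 102 and 122 in control against 216, 394 and 126 in maternal BSp, also without overlap. Maternal BSp was higher without overlap for 2 of the 4 tested receptors, against the same 23.8% of all genes tested. The integrin chain Itgb1 read 555 and 444 in control against 564, 1022 and 511 in maternal BSp. Of 10 genes of TGF-beta signalling, a known inducer of fibrillar collagen, 9 were tested, 6 positive and 3 negative, and the median log2 fold change was 0.36. Smad4 read 72 and 90.9 in control against 108, 126 and 112 in maternal BSp, and the receptors Tgfbr1 and Tgfbr2 gave 0.53 (SE 0.49, limma adjusted p 0.676) and 0.59 (SE 0.37, limma adjusted p 0.552) on the log2 scale.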

How the data were processed

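A strand-specific mRNA kit was used on RNA of 5 tumours (integrity number 7.0 or more), per the labels' protocols. The submitters' processing notes name the aligner STAR, the tools DESeq and FastQC, the trimmers Trim Galore and cutadapt, and the builds GRCm38 and mm10. Counting tool and annotation: not given in the sources used here. The deposited table holds a signal of normalised reads per gene, per the file headers. Divided by the step of its column, 100% of the nonzero values came out whole to 0.1 read. A second deposited table holds the authors' group means and unadjusted p-values, per the file headers.

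The column of control replicate 1 equals its reads and the other 4 hold scaled values, so limma 3.58.1 (trend, no covariate, R 4.3.3) was run on log2(value + 1) for genes with a mean of at least 10. Means are given ± SD. Alternatives were other filters (none, 1, 50), pseudocounts (0.5, 5) and scalings, array weights, a robust prior, a replicate block, each library left out, and edgeR 4.0.16 and DESeq2 1.42.0 on the recovered reads. The limma fit was tested on simulated reads with known fold changes, and recovery was required only at a low dispersion. That test does not give the power of the comparison in these tumours. Positions and transcript lengths come from GENCODE M21 (GRCm38) and promoters from RefSeq. Members and lists were chosen with earlier results of these data known. Named in full are the tested fibrillar and basement membrane genes, the other tested genes with a mean of at least 50, an unadjusted p under 0.05 or groups that do not overlap, and genes with small p in each pathway list. Chain ratios were compared by exact permutation over 10 splits. Genes with near-identical copies or overlaps on opposite strands are uncertain.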

Additional observations from a re-analysis of the deposited data

How the results depend on the processing

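The count of genes called was 0 in the test reported, 699 with array weights, 87 with DESeq2, 23 with the replicate block and 0 to 1 with 1 library left out; for collagen genes it was 1 (Col4a5) with array weights and otherwise 0. Collagen genes at an unadjusted p under 0.05 numbered 2, and 1 with no filter, a filter of 50, a pseudocount of 5 or a robust prior, 3 with each of the other scalings (Col4a5, Col7a1 and Col8a1), 4 with array weights or the block by title number, 5 with DESeq2 and 1 to 8 with 1 library left out (8 without maternal BSp replicate 2). Among the 26 tested, groups did not overlap for 2 collagen genes as deposited, 3 (Col8a1 added) when scaled by median of ratios or by upper quartile, and 4 (Col8a1 and Col5a3 added) with quantile scaling, all chosen after seeing the data. With 1 library left out, the median log2 fold change ran from -0.79 to 0.84 (fibrillar), -0.35 to 0.51 (basement membrane) and -1.16 to 0.22 (other), and the log2 ratio of the share of signal from -0.78 to 1.01 (fibrillar) and 0.032 to 0.62 (basement membrane). With the other alternatives the medians ran from -0.24 to 0.50 (fibrillar), -0.20 to 0.34 (basement membrane) and -0.62 to 0.058 (other). With 1 library left out, the log2 ratio of Col4a1 to Col4a2 differed between groups by -0.15 to 0.085 and that of Col3a1 to Col1a1 by -0.21 to 0.68.

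Of 26 members 9 kept their sign in every alternative and 17 did not. With upper quartile, median-of-ratios and quantile scaling, Col1a1 was at -0.069, -0.12 and -0.0011, Col4a1 at -0.083, -0.13 and -0.083, and Col4a2 at -0.077, -0.12 and -0.12, and Col6a3 was at -0.076 with quantile scaling. With edgeR and DESeq2, Col1a1 was at -0.16 and -0.19, Col3a1 at -0.25 and -0.29, Col4a1 at -0.18 and -0.20, and Col4a2 at -0.18 and -0.20. With array weights, Col16a1 was at 0.23, Col4a1 at -0.15, Col4a2 at -0.086 and Col8a2 at 0.017. With the replicate block, Col18a1 was at 0.019, Col1a2 at 0.19, Col4a1 at -0.066, Col6a1 at 0.28, Col6a2 at 0.40, Col6a3 at -0.013 and Col9a2 at -0.68, and with the block by title number Col14a1 was at -0.015, Col1a1 at -0.13 and Col9a3 at 0.024. With 1 library left out the ranges were -0.19 to 1.04 for Col11a2, -0.015 to 0.73 for Col14a1, -0.36 to 0.24 for Col16a1, -0.57 to 0.26 for Col18a1, -0.69 to 0.82 for Col1a1, -1.23 to 0.40 for Col1a2, -0.90 to 1.499 for Col3a1, -0.41 to 0.51 for Col4a1, -0.35 to 0.46 for Col4a2, -1.95 to 0.32 for Col5a1, -0.065 to 1.02 for Col5a2, -1.88 to 0.28 for Col6a1, -1.45 to 0.53 for Col6a2, -0.054 to 0.42 for Col6a3, -0.68 to 2.02 for Col9a2 and -0.92 to 0.22 for Col9a3. The cause was not tested.

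Libraries share numbers in the labels, but the labels do not say that a number marks an animal or batch. Deviations from the group mean correlated across genes at 0.0937 and -0.0923 for the pairs with the same description number, and at 0.0923 and 0.160 for those with the same title number (control replicate 1 with maternal BSp replicate 2, control replicate 2 with maternal BSp replicate 3). The 2 controls deviate by equal and opposite amounts, so -0.0923 and 0.0923 are the same value with its sign turned. These correlations are therefore not independent and do not decide between the pairings. The replicate block by description number removes maternal BSp replicate 3 from the comparison, as that number has no control. For the same reason the block by title number removes maternal BSp replicate 1. Each block therefore gave the same fold changes as leaving that library out. A lone control is assumed to vary like the other group. The 1106813 reads of control replicate 1 limit genes such as Col9a1, which has 9 reads there.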
